A study of Homo sapiens with 24 samples.

Results

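The genes that encode the enzymes and binding proteins of 2 mRNA marks, N7-methylguanosine (m7G) and N6-methyladenosine (m6A), were followed in HepG2 cells, an established human liver tumour line. The 10 genes were chosen by name: METTL1 and WDR4 (m7G writer), METTL3, METTL14 and WTAP (m6A writer), YTHDF1, YTHDF2 and YTHDF3 (m6A readers), and ALKBH5 and FTO (m6A erasers). They are 10 of 58676 gene rows in the count tables, and all 10 passed the filter on low counts with 13136 genes in all. Cells received the AllStars negative control (siControl) or an siRNA that lowers 1 of the mRNAs IGF2BP1, IGF2BP2 and IGF2BP3 (called siIGF2BP1, siIGF2BP2 and siIGF2BP3), to ask how these proteins, which bind methylated mRNA, alter the lifetime of their targets. Cells of all 4 conditions later received actinomycin D, which stops transcription, at 5 µg/ml for 0, 3 or 6 h. This made 12 groups of 2 libraries, 24 in all. For each condition the dishes of the time points came from re-seeding after transfection. Nothing states that the replicates came from separate transfections, so the p-values do not reach beyond these libraries. They measure the spread between the libraries and, for the decay slopes, also departure from a straight line. That spread is drawn in part from all tested genes, not from each gene alone. A knockdown of METTL1 itself was not analysed here.

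METTL1 is the catalytic subunit of a methyltransferase that places m7G in tRNA and inside mRNA, and WDR4 is its partner. METTL3 is the catalytic subunit of the m6A writer, METTL14 is the partner that helps hold the RNA, and WTAP brings the pair to nuclear speckles. YTHDF proteins bind m6A in the cytoplasm, where YTHDF2 is best known for delivering marked mRNA to deadenylation, and ALKBH5 and FTO remove the methyl group from m6A.

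The libraries held 31843248 to 74252042 reads on genes and 50889 to 119088 reads on ERCC RNA, a synthetic spike-in added in proportion to total RNA. At 0 h the targeted mRNA stood at 20.9% of its siControl level for IGF2BP1, 26.1% for IGF2BP2 and 35.4% for IGF2BP3, each in its own knockdown. The 9 liver markers examined were read at 38.6 to 42400 CPM (reads per 1 M reads on genes) in every library, and the 5 markers of other cell types at 0 to 1.37 CPM, among them PTPRC, PECAM1, COL1A1, GFAP and PAX7. Over 6 h in siControl, all 6 mRNAs of a short-lived list fell, with a median log2 change of -4.75 on the ERCC scale. None of 6 long-lived mRNAs changed past the threshold there, with a median of 0.02. In siIGF2BP1, siIGF2BP2 and siIGF2BP3, 3, 3 and 4 of these 6 long-lived mRNAs rose past it, with medians of 0.16, 0.16 and 0.20. Of 13136 tested genes, 353, 321 and 382 rose past it in these knockdowns. A call below is an adjusted p under 0.05 over all tested genes.

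All 10 mRNAs were present at 0 h, the m7G writers at lower read counts than the m6A readers. In siControl the 2 libraries gave METTL1 13.3 and 15.8 CPM and WDR4 31.9 and 33.4 CPM. METTL3 was read at 77.1 and 79.4 CPM, METTL14 at 31.3 and 29.9 CPM, and WTAP at 140 and 144 CPM. METTL1 was thus the member with the fewest reads and WTAP the one with the most. The readers YTHDF1, YTHDF2 and YTHDF3 had 118 and 123, 123 and 126, and 78.5 and 81.0 CPM. The erasers ALKBH5 and FTO had 84.0 and 82.8, and 63.9 and 60.3 CPM.

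To compare levels between genes, reads were divided by the length of the merged exons and scaled to the same sum in every library (TPM). The order in siControl at 0 h then began with YTHDF1 at 143 ± 4.65 TPM (SD, n = 2), YTHDF2 at 127 ± 1.93 and ALKBH5 at 88.3 ± 0.958. WTAP followed at 84.3 ± 1.69, METTL3 at 50.8 ± 1.01, YTHDF3 at 49.3 ± 1.05 and WDR4 at 45.4 ± 1.46. METTL1 at 28.5 ± 3.37, METTL14 at 17.1 ± 0.586 and FTO at 11.1 ± 0.46 were the lowest of the 10. METTL3 and YTHDF3 lay within the sum of their SDs of each other, and the other neighbours in the order were farther apart than that. The order rested on the length used. With the length of 1 canonical transcript, WTAP came first at 163 TPM, ahead of YTHDF2 at 110, METTL3 at 95.6 and YTHDF1 at 91.3, and METTL14 came last at 11.2, below FTO at 13.0. FTO has 21379 bases of merged exons, the longest of the 10 genes. Under either length METTL14 mRNA was below METTL3 mRNA, and METTL1 mRNA was below WDR4 mRNA.

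Some of these genes share exon bases with a neighbour in the annotation (GENCODE release 44, hg38). METTL1, on the minus strand of chromosome 12 between 57768471 and 57772119, shares 107 exon bases with CYP27B1 on the same strand and 114 with EEF1AKMT3 on the other. METTL3, on the minus strand of chromosome 14 between 21498133 and 21511342, shares 388 exon bases with TOX4 on the other strand, which was read at a mean of 87.0 CPM. YTHDF2 shares 920 exon bases with a long noncoding RNA (ENSG00000289291) on the other strand, which is not among the counted gene rows. WTAP, on the plus strand of chromosome 6 between 159725585 and 159756319, shares 437 exon bases with SOD2 on the other strand. The release 44 identifier of SOD2 is not among the counted gene rows either. The alignment used strand, but the strand setting of the counting is not given in the sources used here, so reads in these stretches are uncertain. Rows of pseudogenes related to the members were at 0 to 0.239 CPM.

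**Figure D1:**
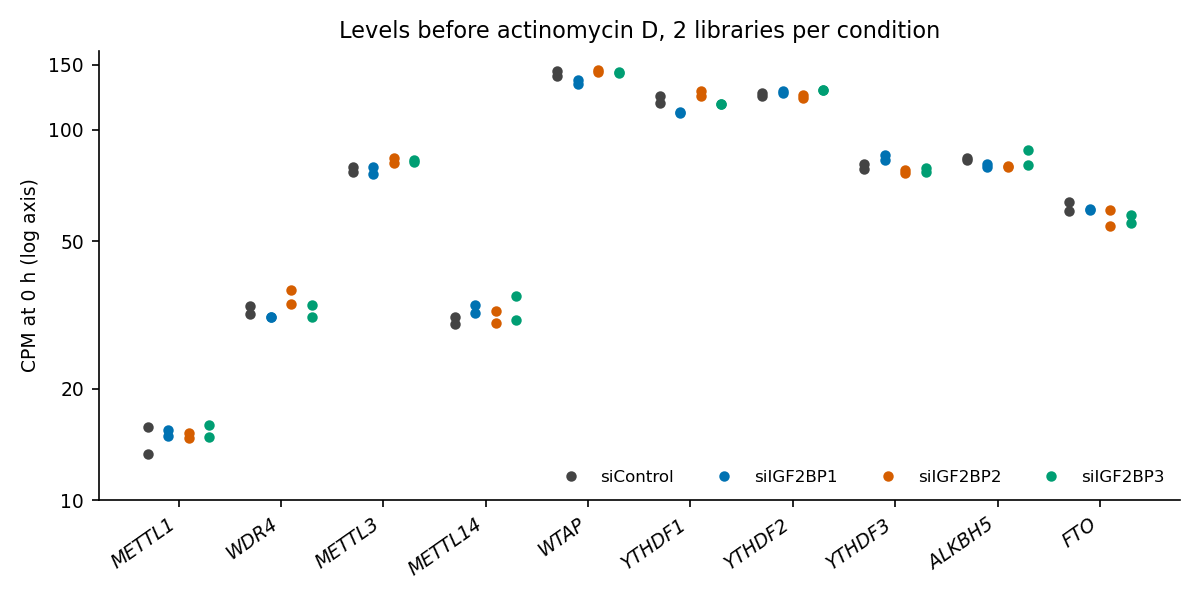
CPM (log axis) of the 10 genes before actinomycin D, with 1 point per library and 4 conditions of 2 libraries side by side. Within each gene the 4 conditions lie close together, and the genes run from METTL1 at 13.3 to 16.0 CPM up to WTAP at 133 to 145 CPM.

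Before actinomycin D none of the 10 mRNAs differed past the threshold from siControl in any knockdown. In siIGF2BP1, 15.9% of all tested genes were called and 0 of 10 members. In siIGF2BP2 it was 12.1% of genes and 0 of 10 members, and in siIGF2BP3 9.39% and 0 of 10 (edgeR's quasi-likelihood test, n = 2 libraries per group). The members' log2 differences ran from -0.09 to 0.12 in siIGF2BP1, from -0.09 to 0.13 in siIGF2BP2 and from -0.11 to 0.12 in siIGF2BP3. Their medians were 0.00, 0.03 and 0.01, beside 0.01, 0.02 and 0.00 for all tested genes. METTL1 had log2 differences of 0.08, 0.04 and 0.08 with SEs of 0.10, 0.099 and 0.10 in the 3 knockdowns. With siControl replicate 1 at 13.3 CPM left out, these values turned to -0.03, -0.07 and -0.03. YTHDF1 was read at 111 and 112 CPM in siIGF2BP1 against 118 and 123 CPM in siControl, so the 4 libraries did not overlap. Its log2 difference was -0.09 (SE 0.054, adjusted p = 0.28), and a fit of these 4 libraries alone gave -0.11 and a call. The largest log2 difference upward was that of WDR4 in siIGF2BP2, 0.13 (SE 0.07, adjusted p = 0.30), with 37.0 and 33.9 CPM against 31.9 and 33.4 CPM.

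Averaged over 0, 3 and 6 h, which gives 6 libraries per condition, some members differed from siControl in each knockdown. These differences were small, the largest being 0.27 on the log2 scale. All 3 comparisons share the same siControl libraries. Values below are on the TMM scale, which is relative to the bulk of genes. On the ERCC scale the median of all genes moved by 0.06 with siIGF2BP1, by 0.15 with siIGF2BP2 and by 0.18 with siIGF2BP3.

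In siIGF2BP1, 39.7% of all tested genes were called, and 4 of 10 members: METTL14 and YTHDF3 were higher and YTHDF1 and WTAP lower. METTL14 was read at 33.6 and 32.0 CPM at 0 h, 22.1 and 22.6 CPM at 3 h and 16.2 and 16.0 CPM at 6 h in siIGF2BP1. In siControl it was at 31.3 and 29.9, then 15.6 and 16.7, then 13.6 and 13.7 CPM. The knockdown libraries were above the control libraries at each time point, and the gap was widest at 3 h. The log2 difference over the time course was 0.27 (SE 0.05, adjusted p = 7.11e-05), and it was called without any 1 of the 12 libraries, between 0.26 and 0.29.

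The reader YTHDF3 had 85.3 and 82.7 CPM at 0 h, 46.7 and 43.5 CPM at 3 h and 21.2 and 23.8 CPM at 6 h in siIGF2BP1. Its siControl libraries were at 78.5 and 81.0, 37.4 and 37.6, and 19.8 and 20.1 CPM, without overlap at any time point. The log2 difference was 0.18 (SE 0.03, adjusted p = 2.72e-05). YTHDF1 went the other way, at 31.3 and 27.6 CPM at 3 h and 14.3 and 17.0 CPM at 6 h against 32.2 and 32.9, and 17.9 and 18.9 CPM in siControl. Its log2 difference was -0.16 (SE 0.04, adjusted p = 0.000601), and on the ERCC scale it was -0.10 and not called (adjusted p = 0.17). WTAP differed by -0.08 (SE 0.03, adjusted p = 0.0156). On the ERCC scale WTAP was at -0.02 and not called, and its call was also lost without siControl 3 h replicate 2 or siIGF2BP1 3 h replicate 2 and without the filter on low counts (adjusted p = 0.0583). METTL3, the catalytic partner of METTL14, had a log2 difference of 0.00 (SE 0.03) in the same libraries, and YTHDF2 of 0.01 (SE 0.04).

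In siIGF2BP2, 33.8% of all tested genes were called, and 4 of 10 members: WDR4, METTL3 and YTHDF1 were higher, and FTO was lower on the TMM scale but at 0.03 and not called on the ERCC scale. WDR4 was read at 33.1 and 30.8 CPM at 3 h and 31.2 and 31.4 CPM at 6 h, against 27.8 and 25.7, and 28.7 and 23.9 CPM in siControl. The libraries did not overlap at 3 h, at 6 h or at 0 h. The log2 difference of WDR4 was 0.18 (SE 0.04, adjusted p = 0.000739) and was called without any 1 library, while its partner METTL1 stood at -0.04 (SE 0.06, adjusted p = 0.69). METTL3 was at 0.08 (SE 0.03, adjusted p = 0.0236), YTHDF1 at 0.09 (SE 0.04, adjusted p = 0.0457) and FTO at -0.11 (SE 0.03, adjusted p = 0.00836). The METTL3 call was lost without siControl 0 h replicate 1, siControl 3 h replicate 1, siIGF2BP2 0 h replicate 2 or siIGF2BP2 6 h replicate 2. Without the filter on low counts neither METTL3 (adjusted p = 0.0893) nor YTHDF1 (adjusted p = 0.112) was called. The YTHDF1 call was lost in 8 of the 12 fits that leave out 1 library: siControl 0 h replicate 1, 3 h replicates 1 and 2 and 6 h replicate 1, and siIGF2BP2 0 h replicate 2, 3 h replicates 1 and 2 and 6 h replicate 1. The FTO call was lost without siIGF2BP2 0 h replicate 2.

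In siIGF2BP3, 32.3% of all tested genes were called, and 4 of 10 members, all higher: METTL3, METTL14 and WTAP, which together form the core of the m6A writer, and the eraser ALKBH5. METTL3 was read at 81.7 and 82.8 CPM at 0 h, 72.3 and 73.4 CPM at 3 h and 61.9 and 68.0 CPM at 6 h, against 77.1 and 79.4, 70.8 and 71.6, and 55.5 and 54.6 CPM in siControl. The log2 difference was 0.10 (SE 0.03, adjusted p = 0.00887). METTL14 differed by 0.15 (SE 0.05, adjusted p = 0.0343), WTAP by 0.07 (SE 0.03, adjusted p = 0.0266) and ALKBH5 by 0.09 (SE 0.03, adjusted p = 0.0207). These 4 calls were also made by DESeq2 and on the ERCC scale, but without the filter on low counts WTAP (adjusted p = 0.14) and ALKBH5 (adjusted p = 0.0886) were not called. Single libraries carried them: the METTL3 call was lost without siIGF2BP3 6 h replicate 2. The METTL14 call was lost in 6 of 12 fits (siControl 0 h replicate 2, 3 h replicate 1 and 6 h replicate 1, and siIGF2BP3 0 h replicate 1, 3 h replicate 2 and 6 h replicate 2). The WTAP call was lost in 5 of 12 (siControl 0 h and 3 h replicate 1, and siIGF2BP3 0 h replicate 1, 3 h replicate 1 and 6 h replicate 2), and the ALKBH5 call in 4 of 12 (siControl 0 h replicate 2 and 6 h replicate 1, and siIGF2BP3 0 h and 6 h replicate 1).

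The shares of members called, 4 of 10 in each knockdown, lay near the shares of all tested genes called. METTL1, the m7G writer whose mark the study followed, stood at -0.02 (siIGF2BP1), -0.04 (siIGF2BP2) and -0.01 (siIGF2BP3) in log2 difference, with SEs of 0.06. On the ERCC scale the METTL1 values in siIGF2BP2 and siIGF2BP3 turned to 0.10 and 0.18 and were not called. On that scale 2, 8 and 9 of 10 members were called in the 3 knockdowns, all higher. Of 13136 tested genes, 3073, 5800 and 6946 were called higher and 1011, 507 and 257 lower. The member medians were 0.06, 0.20 and 0.22, beside all-gene medians of 0.06, 0.15 and 0.18.

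**Figure D2:**
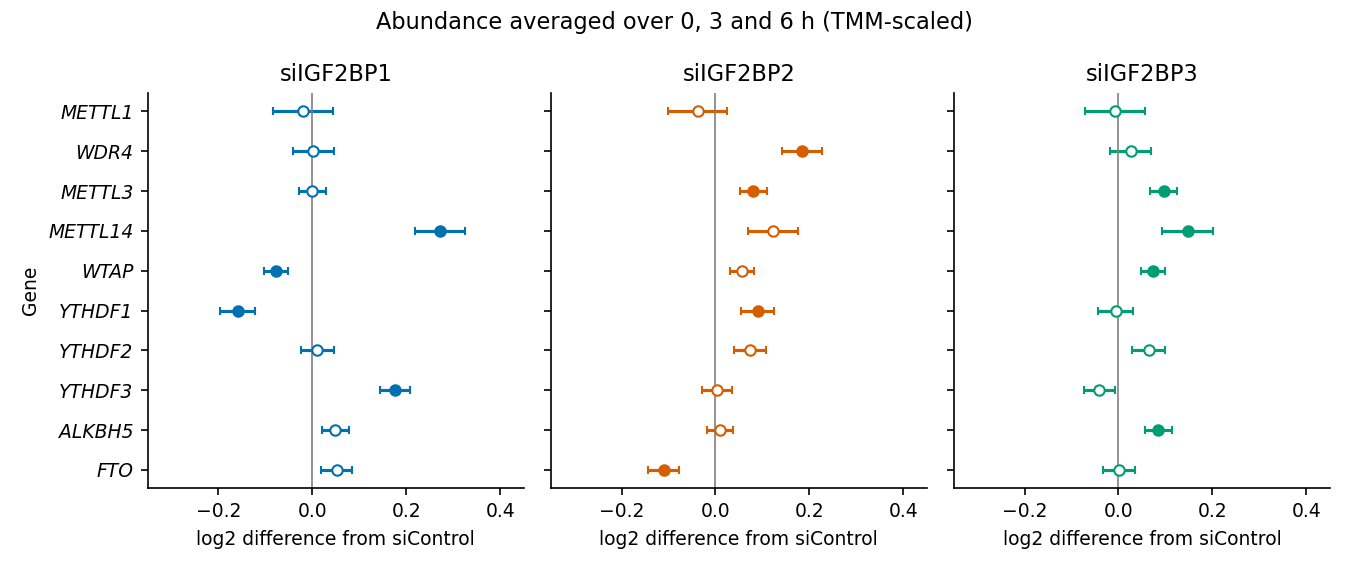
log2 difference from siControl on the TMM scale averaged over 0, 3 and 6 h for each gene and knockdown, with bars of 1 SE (6 libraries per condition) and filled points for adjusted p under 0.05. METTL14 at 0.27 and YTHDF3 at 0.18 in siIGF2BP1 and WDR4 at 0.18 in siIGF2BP2 stand farthest above 0. YTHDF1 at -0.16 in siIGF2BP1 stands farthest below. On the ERCC scale FTO in siIGF2BP2 and METTL1 in siIGF2BP2 and siIGF2BP3 turn positive and are not called. YTHDF1 (0.17) and YTHDF3 (0.14) in siIGF2BP3 turn positive on that scale and are called.

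Compared directly, the knockdowns also differed from each other. Between siIGF2BP1 and siIGF2BP2, 43.0% of all tested genes and 7 of 10 members were called. Relative to siIGF2BP2, siIGF2BP1 had higher YTHDF3 (log2 difference 0.17, SE 0.03, adjusted p = 3.15e-05), METTL14 and FTO, and lower YTHDF1 (-0.25, SE 0.04, adjusted p = 5.51e-07), WTAP, WDR4 and METTL3. None of these 3 higher members was called on the ERCC scale (adjusted p = 0.18 for YTHDF3, 0.42 for METTL14 and 0.23 for FTO). On that scale 5 members were called lower. Of 13136 tested genes 3569 were called lower there and 1066 higher, with an all-gene median of -0.08. Between siIGF2BP3 and siIGF2BP1, 37.9% of genes and 4 of 10 members were called, and siIGF2BP3 had lower YTHDF3 (-0.22, SE 0.03, adjusted p = 1.54e-06) and higher METTL3, WTAP and YTHDF1. There YTHDF3 was not called on the ERCC scale (adjusted p = 0.16). Between siIGF2BP3 and siIGF2BP2, 30.4% of genes and 4 of 10 members were called. The siIGF2BP3 libraries had lower WDR4 (-0.16, SE 0.04, adjusted p = 0.00472) and YTHDF1 and higher ALKBH5 and FTO, and of these 4 members FTO alone was called on the ERCC scale. Of 13136 tested genes 1659 were called higher and 725 lower on that scale in siIGF2BP3 minus siIGF2BP2. No library was left out in turn for these 3 comparisons.

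After actinomycin D all 10 mRNAs fell in siControl, at rates that differed widely. Reads are from bulk cells, so fewer cells and less RNA per cell cannot be told apart. On the ERCC scale, 80.3% of all tested genes were called lower. The members' median log2 change over 6 h was -1.81, beside -0.88 for all tested genes. In siIGF2BP1, siIGF2BP2 and siIGF2BP3 all 10 members fell as well, where 69.1%, 71.3% and 67.2% of tested genes were called lower. The members' medians there were -1.66, -1.62 and -1.66, beside -0.69, -0.71 and -0.65. Values below are percent of the mean of the 0 h libraries of the same condition, scaled by ERCC reads.

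The readers YTHDF2 and YTHDF1 were lost fastest, while YTHDF3 was close to the writer subunit WTAP. YTHDF2 stood at 13.6% and 13.2% in the siControl libraries at 3 h and at 7.95% and 6.68% at 6 h. YTHDF1 was at 22.5% and 22.8%, then 10.5% and 10.3%. YTHDF3 was at 39.4% and 39.5%, then 17.6% and 16.6%. The libraries of each time point stayed apart from those of the others. The fitted log2 changes over 6 h were -3.81 (SE 0.45, adjusted p = 9.15e-08) for YTHDF2, -3.28 (SE 0.27) for YTHDF1 and -2.55 (SE 0.10) for YTHDF3.

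The m6A writer subunits fell at 3 different rates. WTAP was at 36.4% and 38.5% at 3 h and 20.8% and 19.3% at 6 h, METTL14 at 42.7% and 45.6%, then 31.4% and 29.4%, and METTL3 at 76.0% and 76.6%, then 50.2% and 46.1%. The log2 changes were -2.32 (SE 0.17), -1.72 (SE 0.17) and -1.05 (SE 0.09), so the catalytic subunit was the slowest of the complex. Of the m7G writer, METTL1 was at 59.3% and 53.8%, then 27.0% and 26.5%, and WDR4 at 71.5% and 66.0%, then 62.3% and 48.3%. Their log2 changes were -1.90 (SE 0.12, adjusted p = 6.14e-12) and -0.85 (SE 0.13, adjusted p = 2.75e-06). Of the erasers, ALKBH5 was at 35.7% and 34.0% at 6 h with a log2 change of -1.52 (SE 0.09), and FTO at 47.3% and 46.5% with -1.09 (SE 0.10).

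On the TMM scale, which is relative to the bulk of mRNA, 9 of 10 members fell in siControl and the order of the fastest was kept, with YTHDF2 at -2.96, YTHDF1 at -2.42 and YTHDF3 at -1.68. WDR4 turned to 0.01 (SE 0.08, adjusted p = 0.94), and METTL3 and FTO were at -0.19 and -0.22. In siIGF2BP1, siIGF2BP2 and siIGF2BP3, 7, 8 and 7 of 10 members were called lower on that scale. Of 13136 tested genes, 5085 were called lower on it in siControl, and 5043, 5145 and 4931 in the 3 knockdowns. Those called higher were 4773 in siControl, and 4736, 4560 and 4726 in the knockdowns.

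**Figure D3:**
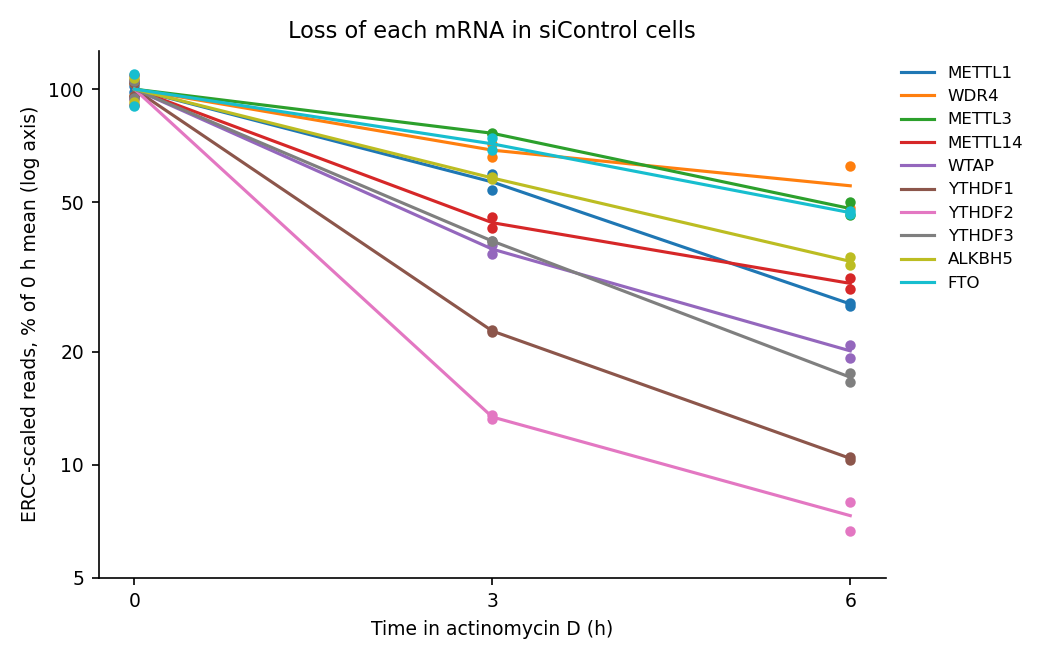
Percent of the 0 h mean (log axis, ERCC-scaled reads) against hours in actinomycin D in siControl, with points for the 2 libraries and lines through their means. YTHDF2 and YTHDF1 are at 6.68% to 10.5% at 6 h and bend after 3 h, while WDR4, METTL3 and FTO stay at 46.1% to 62.3%, and on the TMM scale WDR4 does not fall.

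The fit above takes the loss as linear in log2 over time, and 4 members departed from that in siControl. The log2 change from 0 to 3 h minus that from 3 to 6 h, a comparison added after the values were seen, was called for 12.6% of all tested genes and 4 of 10 members, all with more loss in the first interval. It was -2.02 (SE 0.18, adjusted p = 4.56e-28) for YTHDF2, -1.02 (SE 0.17) for YTHDF1, -0.64 (SE 0.20) for METTL14 and -0.51 (SE 0.16) for WTAP. YTHDF3, whose total loss was close to that of WTAP, was at -0.14 (SE 0.17, adjusted p = 0.68). The same comparison called 11.5% of genes and 3 of 10 members in siIGF2BP1, 18.0% and 4 of 10 in siIGF2BP2, and 12.1% and 4 of 10 in siIGF2BP3. YTHDF1, YTHDF2 and WTAP were called in all 4 conditions. METTL14 was at -0.13 (SE 0.19, adjusted p = 0.85) in siIGF2BP1, -0.56 (SE 0.19) in siIGF2BP2 and -0.59 (SE 0.20) in siIGF2BP3, and the difference of siIGF2BP1 from the others in this measure was not tested.

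Words of the 3′ UTRs were looked up because both m6A writing and AU-rich decay read short sequences there. The searches used the sense strand of 1 canonical transcript per gene. The AU-rich word TATTTAT was found in 3 of 10 members, METTL14, YTHDF3 and FTO, and in 35.5% of 11320 tested 3′ UTRs. The word GGACT, a common form of the m6A consensus, was found in 6 of 10 members and in 62.5% of those 3′ UTRs. Of the 4 mRNAs lost fastest, YTHDF2, YTHDF1 and WTAP have no TATTTAT in 3′ UTRs of 823, 1279 and 708 bases. The other, YTHDF3, has 1 in 3080 bases. Of the slowest, WDR4 and METTL3 have none in 823 and 120 bases, and FTO has 1 in 10026 bases. Among tested 3′ UTRs the share with TATTTAT rose with length, at 32.8%, 53.4% and 73.7% in classes of increasing length. The members were not compared with 3′ UTRs of like length, and a link of the word to decay was not tested. The word of YTHDF3 is not shown. In siControl the log2 change over 6 h was -1.72 for METTL14 and -1.09 for FTO. The TATTTAT words of METTL14 and FTO are shown in capitals, at chr4:118712781-118712809 (plus strand) and chr16:54121782-54121810 (plus strand).
METTL14: ccaactgttgtTATTTATttccagtgaga
FTO: aaagggtgtccTATTTATaagtcagtaaa
The GGACT words, in capitals, of YTHDF2, WTAP and METTL1 are all those in their 3′ UTRs, at chr1:28769018-28769046 and chr1:28769098-28769126 (plus strand), chr6:159756084-159756112 (plus strand) and chr12:57768751-57768779 (minus strand), all hg38.
YTHDF2, first word: tcaagagaattaGGACTtttttcttaatt
YTHDF2, second word: acaaaagacataGGACTtaactggaaaat
WTAP: tcactaaaagttGGACTcattgatggagt
METTL1: gagatggtcaaaGGACTttggaccatagg
YTHDF2 had 2.43 GGACT words per kilobase of 3′ UTR, METTL1 1.91, WTAP 1.41, ALKBH5 1.28, METTL14 1.17 and FTO 0.499, against a mean of 0.928 over the tested 3′ UTRs. WDR4, METTL3, YTHDF1 and YTHDF3 had none. These matches describe letters, and methylation at them was not measured here.

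The half-lifetime of each mRNA was computed from the mean decay constant of the 3 h and 6 h points, with the decay formula of the study, and carries no test. The study converted CPM to attomoles by a linear fit to the spike-in, whereas reads here were divided by each library's total ERCC reads. In siControl it ran from 1.25 h for YTHDF2 (1.25 and 1.26 h in replicates 1 and 2) and 1.59 h for YTHDF1 (1.55 and 1.63 h) up to 6.20 h for WDR4 (6.55 and 5.84 h) and 6.54 h for METTL3 (5.98 and 7.25 h). Between these lay YTHDF3 at 2.29 h, WTAP at 2.33 h, METTL14 at 2.94 h, METTL1 at 3.39 h, ALKBH5 at 3.88 h and FTO at 5.82 h. Replicate ranges overlapped between YTHDF3 and WTAP, between METTL14 and METTL1, between METTL1 and ALKBH5, and among FTO, WDR4 and METTL3, so these neighbours in the order were not told apart. The members' median was 3.17 h, beside 6.22 h over the genes with a value, and 9 of 10 members lay below that all-gene median. YTHDF2 was shorter-lived than all but 2.7% of those genes and YTHDF1 than all but 6.5%.

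In each knockdown 9 of 10 members had a longer half-lifetime than in siControl, as did most genes with a value. Of the genes with a value in both conditions, 81.6% were longer with siIGF2BP1, 62.8% with siIGF2BP2 and 84.7% with siIGF2BP3. A gene without measured decay has no value, and 10349, 11011 and 10225 of 12179 genes had one in the 3 knockdowns. Relative to siControl, the members had median log2 ratios of 0.20, 0.08 and 0.20. Over the genes with both values these were 0.23, 0.07 and 0.25. METTL1 was the member that was not longer, at 3.34, 3.13 and 3.35 h against 3.39 h. Its siControl replicates were 3.62 and 3.18 h, a range that holds the siIGF2BP1 and siIGF2BP3 values. The slope fit gave METTL1 differences of -0.02, 0.13 and 0.04, none called, where a positive value is slower loss. The 2 measures thus went opposite ways in siIGF2BP2 and siIGF2BP3. The largest ratio was that of FTO in siIGF2BP3, 10.2 h (10.3 and 9.95 h) against 5.82 h (5.11 and 6.90 h), without overlap of the replicates. In siIGF2BP1 FTO was at 8.21 h (8.22 and 8.18 h) and in siIGF2BP2 at 6.17 h (5.46 and 7.10 h), which overlaps siControl.

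METTL14 had 4.11 h in siIGF2BP1 (4.07 and 4.15 h) against 2.94 h (2.66 and 3.31 h) in siControl, and 3.45 and 3.43 h in siIGF2BP2 and siIGF2BP3. ALKBH5 had 5.31, 4.69 and 5.16 h in the 3 knockdowns against 3.88 h. WDR4 had 8.92 h in siIGF2BP1, but its replicates there were 12.2 and 6.84 h. The short-lived readers moved little: YTHDF2 had 1.29, 1.33 and 1.33 h and YTHDF1 1.61, 1.66 and 1.71 h.

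**Figure D4:**
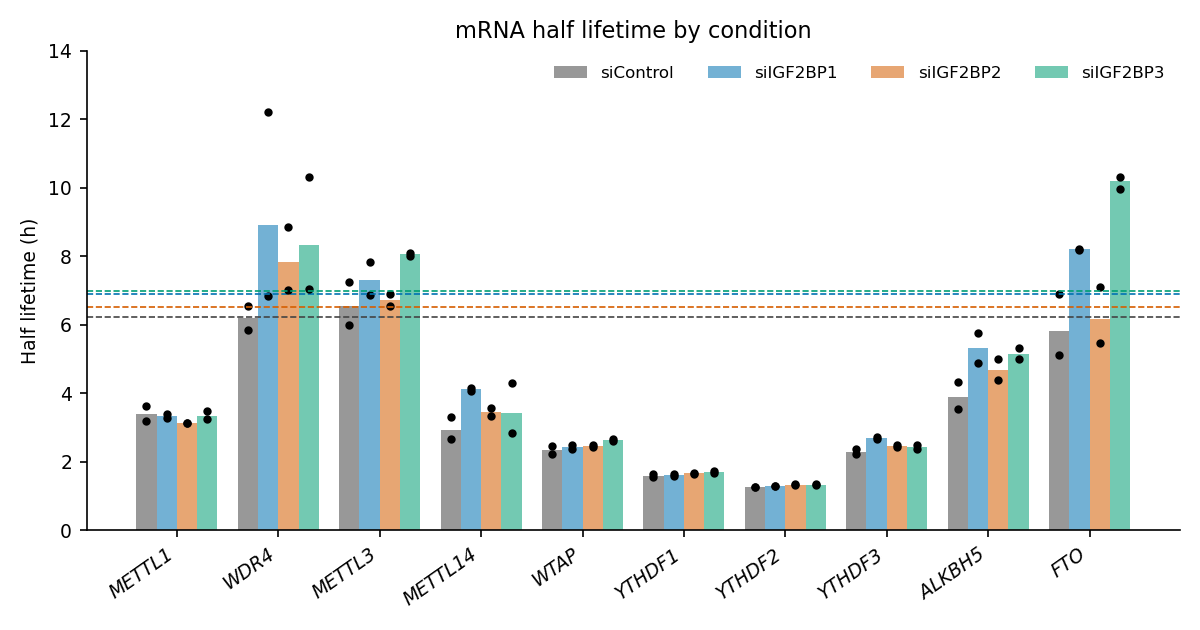
Half-lifetime in hours of each gene in the 4 conditions on the ERCC scale. Bars give the value from both replicates and points those of replicates 1 and 2. Dashed lines give the median of all genes with a value in each condition (6.22 to 6.98 h). YTHDF1 and YTHDF2 stay under 2 h in every condition, and WDR4 and FTO show the widest replicate ranges or the largest gaps from siControl.

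The decay slopes of the members did not differ past the threshold between any knockdown and siControl. In siIGF2BP1 0.0152% of all tested genes and 0 of 10 members were called, in siIGF2BP2 0% and 0 of 10, and in siIGF2BP3 0.0228% and 0 of 10. At an unadjusted p under 0.05, edgeR's test had 1436, 896 and 2113 genes, and DESeq2 called 4, 6 and 27 genes. The members' median slope difference was 0.24, 0.25 and 0.25 in log2 over 6 h, beside 0.19, 0.17 and 0.22 for all genes, and was positive in 9, 10 and 10 of 10 members. The 6 long-lived mRNAs had medians of 0.15, 0.14 and 0.18, positive in all 6 in each knockdown. Among the members the largest difference was that of FTO in siIGF2BP3, 0.39 (SE 0.14, adjusted p = 0.28). METTL3 in siIGF2BP3 followed at 0.36 (SE 0.13, adjusted p = 0.28). Without siControl 0 h replicate 2, 540 genes were called in siIGF2BP3, among them FTO at 0.52 and METTL3 at 0.46. Without siControl 0 h replicate 1 no gene was called and the members' medians were 0.13 in each of the 3 knockdowns, and without siIGF2BP2 6 h replicate 2 the median in siIGF2BP2 was 0.09. On the TMM scale the members' medians were 0.05, 0.06 and 0.03. METTL1 was at -0.02, 0.13 and 0.04 with SEs of 0.18, 0.17 and 0.17, and on the TMM scale it turned to -0.06 in siIGF2BP2 and -0.17 in siIGF2BP3. YTHDF2 had SEs of 0.61, 0.60 and 0.62, the widest of the 10 genes, and these include its departure from a straight line over time.

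A ratio of 2 mRNAs within a library needs no scaling. The pairs below were chosen after the values were seen, and no test is given. The reads of METTL1 per read of WDR4 lay between 0.409 and 0.496 in the 8 libraries at 0 h and between 0.175 and 0.243 at 6 h, lower at 6 h in all 4 conditions. METTL14 per METTL3 went from 0.369 to 0.435 at 0 h to 0.220 to 0.289 at 6 h. ALKBH5 per FTO went from 1.30 to 1.57 at 0 h to 0.874 to 1.10 at 6 h. In each of the 3 pairs, no 6 h library of a condition reached its 0 h libraries. At 3 h METTL14 per METTL3 was 0.337 and 0.338 in siIGF2BP1 and 0.220 and 0.233 in siControl, with siIGF2BP2 at 0.262 and 0.268 and siIGF2BP3 at 0.234 and 0.287.

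**Figure D5:**
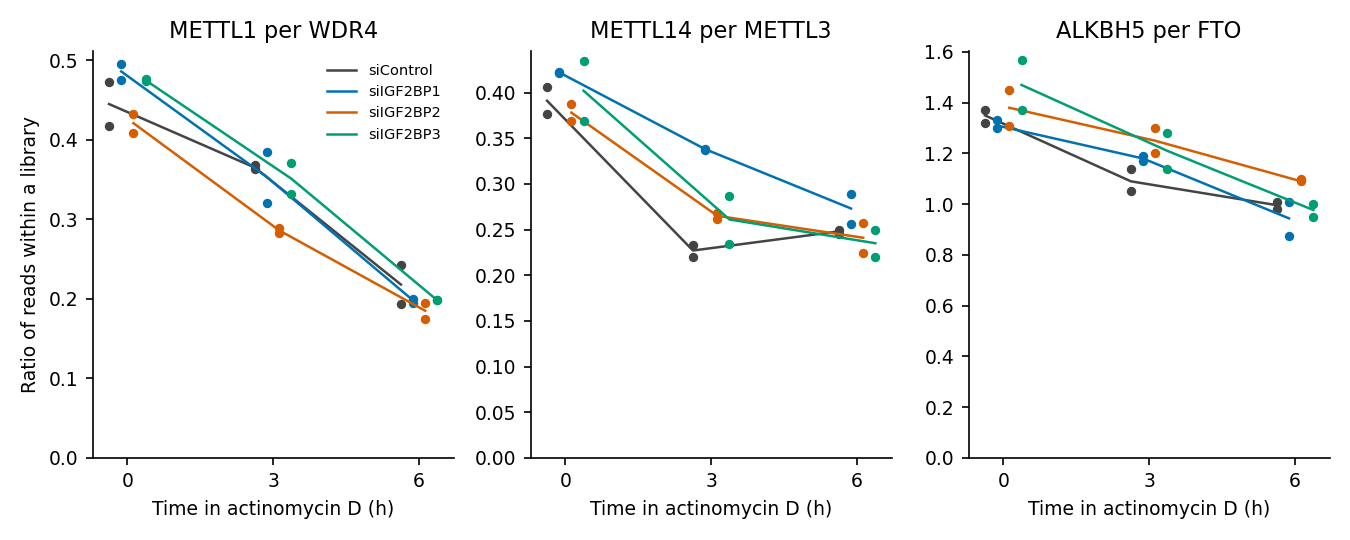
Ratio of reads within a library for METTL1 per WDR4, METTL14 per METTL3 and ALKBH5 per FTO against hours in actinomycin D, with 1 point per library, lines through the mean of 2 replicates and conditions offset sideways. All 3 ratios are lower at 6 h than at 0 h in every condition, and METTL14 per METTL3 at 3 h is highest in siIGF2BP1.

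A list of 21 other genes of RNA methylation (cap and internal m7G, m6A cofactors, further methyltransferases and further readers) was described the same way. At 0 h 3 were higher and 2 lower in siIGF2BP1, and 2 were higher in siIGF2BP2 and in siIGF2BP3, where 15.9%, 12.1% and 9.39% of all tested genes were called. FMR1, which encodes an RNA-binding protein that also reads m6A, led in each, with log2 differences of 0.70 (SE 0.05), 0.37 (SE 0.05) and 0.49 (SE 0.05). HNRNPC, a nuclear RNA-binding protein, was higher by 0.12, 0.11 and 0.10. In siIGF2BP1 YTHDC2, an m6A reader with a helicase domain, was higher by 0.15, and RNMT, the cap m7G methyltransferase, and ZC3H13, an m6A writer cofactor, fell by 0.21 and 0.15. Over the time course 10, 5 and 7 of the 21 were called, beside 39.7%, 33.8% and 32.3% of all tested genes. Those farthest from 0, beside FMR1, were in siIGF2BP1 ZCCHC4 (0.24), YTHDC2 (0.19), CBLL1 (-0.32), RNMT (-0.27) and ZC3H13 (-0.22). In siIGF2BP2 they were METTL5 (0.16), CBLL1 (-0.22), ZC3H13 (-0.11) and HNRNPA2B1 (-0.10), and in siIGF2BP3 PCIF1 (0.16), YTHDC1 (0.13) and BUD23 (-0.12). In siControl 18 of the 21 were called lower after actinomycin D, beside 80.3% of all tested genes. All 21 had a negative log2 change there, with a median of -1.41. None of the 21 differed in slope past the threshold in any knockdown, beside 0.0152%, 0% and 0.0228% of all tested genes. The abundance values of these genes are on the TMM scale. Their values on the ERCC scale are not given here, and the all-gene shifts on that scale are given above.

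Over the 12 group means of log2 CPM after TMM scaling, the gene most like each member by Pearson's r was HHEX for WTAP (0.999), TMEM186 for YTHDF1 (0.999), HJURP for YTHDF2 (0.999) and WEE1 for YTHDF3 (0.998). It was PGRMC2 for METTL1 (0.994), KIF2A for ALKBH5 (0.992), FAM217B for METTL14 (0.989), PWP1 for FTO (0.954), ZNF706 for METTL3 (0.938) and MSANTD3 for WDR4 (0.912). The points share the time course, so any mRNAs lost at like rates are alike in this measure.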

How the data were processed

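Per the labels and the study's methods, mRNA was purified from total RNA with ERCC RNA added, libraries were made with the SMARTer Stranded Total RNA-Seq Kit v2 and sequenced single-end. The authors trimmed reads with Trimmomatic 0.39, aligned them to hg38 with HISAT2 2.1.0 (strand RF) and counted reads per gene of GENCODE v29 with HTSeq, whose settings for strand and multiple hits are not given in the sources used here. The deposited values are raw counts per gene, with ERCC rows. The 5 rows that name no gene held 13.6% to 17.1% of reads and were left out, with 45 chromosome Y copies of shared genes. Symbols and positions came from GENCODE release 44, which matched 58207 of 58676 rows.

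Genes with at least 1 CPM in 2 libraries were tested with edgeR 4.0.16 (quasi-likelihood, two-sided, Benjamini-Hochberg over 13136 genes, R 4.3.3). Abundance used TMM scaling and 12 group means, and decay used ERCC totals and a slope on time per condition. Half-lifetimes used genes with a mean of at least 1 CPM. Alternatives were DESeq2 1.42.0, other scalings, no filter, fewer time points or libraries, a replicate block and leaving out each library. The edgeR fits were also run on simulated counts with a fixed spread, loss linear in log2 and an exact ERCC scale. Those runs do not show how the fits behave where the real data depart from these settings. The members and lists were chosen with earlier results of these data known, and the named genes are the 10 members, the siRNA targets, the called genes of the other list farthest from 0 (at most 3 each way) and the most alike gene of each member. Spike-in reads follow total RNA, so the ERCC scale is per total RNA.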

Additional observations from a re-analysis of the deposited data

Results flagged for a closer look

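The values below stand out because a direct test between knockdowns, averaged over 0, 3 and 6 h, called a difference (edgeR's quasi-likelihood test, adjusted p under 0.05 over all tested genes). For siIGF2BP1 minus siIGF2BP2 the log2 differences were -0.18 for WDR4, -0.081 for METTL3, 0.15 for METTL14, -0.13 for WTAP, -0.25 for YTHDF1, 0.17 for YTHDF3 and 0.16 for FTO. For siIGF2BP3 minus siIGF2BP1 they were 0.10 for METTL3, 0.15 for WTAP, 0.15 for YTHDF1 and -0.22 for YTHDF3. For siIGF2BP3 minus siIGF2BP2 they were -0.16 for WDR4, -0.10 for YTHDF1, 0.075 for ALKBH5 and 0.11 for FTO. Each kept its sign on the ERCC and library-size scales. On the ERCC scale METTL14, YTHDF3 and FTO in the first comparison, YTHDF3 in the second, and WDR4, YTHDF1 and ALKBH5 in the third were not called. On the library-size scale METTL14 in the first comparison and ALKBH5 in the third were not called. Without the filter on low counts METTL3 in the first comparison and YTHDF1 and ALKBH5 in the third were not called.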

How the results depend on the processing

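Counts below are of all tested genes called. With ERCC scaling 649, 732 and 471 genes were called at 0 h (siIGF2BP1, then siIGF2BP2, then siIGF2BP3), against 2093, 1593 and 1234 with TMM, and 7203 over the time course in siIGF2BP3 against 4239. Higher and lower calls at 0 h were 1239 and 854, 874 and 719, and 647 and 587 with TMM, and 253 and 396, 563 and 169, and 388 and 83 with ERCC. Over the time course they were 2790 and 2428, 2252 and 2188, and 2131 and 2108 with TMM, and 3073 and 1011, 5800 and 507, and 6946 and 257 with ERCC. Between knockdowns they were 2942 and 2712 (siIGF2BP1 minus siIGF2BP2), 2315 and 2663 (siIGF2BP3 minus siIGF2BP1) and 1977 and 2015 (siIGF2BP3 minus siIGF2BP2) with TMM, and 1066 and 3569, 4398 and 555, and 1659 and 725 with ERCC. For decay in siControl, 33 were higher and 10551 lower with ERCC, and 4773 and 5085 with TMM.

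Decay differences were called for 2, 0 and 3 genes in siIGF2BP1, siIGF2BP2 and siIGF2BP3. DESeq2 gave 4, 6 and 27, TMM scaling 1 and 2 in the first 2, no filter 9, 22 and 12, and 0 h to 6 h alone 86, 72 and 195. Added after the data were seen, 0 h to 3 h alone gave 8, 6 and 10, the same with TMM 11, 10 and 8, and 3 h to 6 h alone 9 and 25 in the first 2. The members' median half-lifetime was 5.97, 6.80, 5.97 and 5.65 h with TMM in siControl, siIGF2BP1, siIGF2BP2 and siIGF2BP3, and 3.32, 3.70 and 3.76 h with 0 h and 6 h alone in the first 3. The cause of these shifts was not tested.

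Leaving out 1 library at a time gave 1265 to 1412, 846 to 978 and 586 to 765 genes at 0 h, 4760 to 5065, 3936 to 4271 and 3768 to 4100 over the time course, and 9533 to 10931 for decay in siControl. Decay differences ran from 0 to 12, 0 to 1 and 0 to 540, the last without siControl 0 h replicate 2. Half-lifetime medians from 1 replicate were 3.11 to 3.24 h in siControl, 3.72 h in siIGF2BP1, 3.24 to 3.35 h in siIGF2BP2 and 3.15 to 3.77 h in siIGF2BP3.

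Members that changed sign by more than 1 SE, or with a call, were these. With ERCC scaling at 0 h, YTHDF2 (0.077), YTHDF3 (0.044) and ALKBH5 (0.019) in siIGF2BP2 and WDR4 (0.079), YTHDF1 (0.045) and YTHDF3 (0.056) in siIGF2BP3 became positive. Over the time course METTL1 (0.10) and FTO (0.026) in siIGF2BP2 and METTL1 (0.18), YTHDF1 (0.17, called) and YTHDF3 (0.14, called) in siIGF2BP3 did. With TMM scaling the decay of WDR4 in siControl was 0.008, and the slope differences of METTL1 (-0.057) and FTO (-0.055) in siIGF2BP2 and METTL1 (-0.17) and YTHDF3 (-0.008) in siIGF2BP3 were negative. From 0 h to 3 h alone METTL3 was at -0.052, -0.105 and -0.009 in the 3 knockdowns, and METTL1 (-0.21) and FTO (-0.017) in siIGF2BP2 were negative. With TMM over that interval METTL3 was at 0.064 in siControl and -0.13, -0.081 and -0.076 in the knockdowns, METTL1 at -0.18 in siIGF2BP2 and YTHDF3 at -0.034 in siIGF2BP3. From 3 h to 6 h alone METTL14 (-0.094) and ALKBH5 (-0.033) in siIGF2BP1 and ALKBH5 (-0.025) in siIGF2BP3 were negative. Over fits without 1 library, METTL1 at 0 h ran from -0.032 to 0.204, -0.07 to 0.165 and -0.027 to 0.208 in the 3 knockdowns, negative without siControl 0 h replicate 1, and ALKBH5 in siIGF2BP3 from -0.05 to 0.081, negative without siIGF2BP3 0 h replicate 1. Of 787 values of single members under the other alternatives, 672 kept their side of the threshold and direction or stayed within 1 SD.

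The labels repeat replicate numbers 1 and 2 across groups. Within a condition the deviations of like-numbered libraries correlated at -0.03 to 0.24, and 3 of 12 pairs were above 0.1, so the numbers were not taken to pair the libraries. With a replicate block, 2181, 1683 and 1316 genes were called at 0 h, 5319, 4537 and 4338 over the time course, 10604 for decay in siControl, and 1, 2 and 3 for the decay differences, and no call of a member changed. WDR4 has no half-lifetime with TMM in siIGF2BP1 and siIGF2BP2, where its scaled reads did not fall.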
